A study of Arabidopsis thaliana with 8 samples.

Results

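The comparison described here set skip-1 mutant seedlings of Arabidopsis thaliana against wild-type seedlings without abscisic acid (ABA), the hormone of drought and seed dormancy that the wider study applied. It rests on 4 of the 8 RNA-seq libraries, chosen by their labels: 2 of wild type (accession Columbia-0) and 2 of skip-1, each from whole 13-day-old seedlings given the 3-hour treatment at 0 µM ABA. Both genotypes grew in long days, with 16 hours of light at 22 °C and 8 hours of dark at 18 °C. The other 4 libraries come from the same genotypes at 100 µM ABA and are used for the shared estimate of spread and as separate libraries beside some results. All 33674 features of the deposited count table belong to the comparison, and 21008 of them had enough reads to be tested. The labels name skip-1 as a single mutant line and give neither its lesion nor the time of day of harvest. They also do not say whether the 2 libraries of a group came from separate cultures, so the p-values measure the spread between these libraries, which may be technical.

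SKIP is the plant relative of the yeast splicing factor Prp45 and of the animal protein SNW1. It is a component of the spliceosome, the machine that removes introns from pre-mRNA, and it also works with the Paf1 complex on chromatin, where it is known for its part in flowering time. Loss of SKIP in Arabidopsis is known for lengthened circadian periods and altered responses to salt and ABA. The SKIP gene itself (chr1:28999577-29002143 on RefSeq's TAIR10.1) stood at 150.5 and 163 CPM in wild type and 104 and 133 CPM in skip-1, so both mutant libraries lay below both wild-type libraries, but the difference did not pass the test (log2 fold change -0.40 ± 0.15, adjusted p = 0.0822). Among 47 tested genes within 100 kb of SKIP 8 were called, beside 20.5% of all tested features. Since the lesion is not given, reads of this gene cannot show whether a working transcript was made.

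Library totals ran from 20870110 to 23640113 counts, and the 4 libraries without ABA held 21121411 to 23640113. Values are CPM (counts scaled to a common library size, here with TMM factors) in each library, and a difference is the log2 fold change of skip-1 over wild type with its standard error. A gene is called where the adjusted p of edgeR's quasi-likelihood test fell under 0.05 over all 21008 features. On that rule 4297 features (20.5%) were called, 2195 (10.4%) higher and 2102 (10%) lower in skip-1. Of these, 1584 (7.54% of those tested) differed at least 2-fold, 964 upwards and 620 downwards. Calls at least 4-fold in size numbered 487, of which 356 were upwards and 131 downwards. Most calls were small, with 63.1% of all calls under 2-fold.

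A stricter set is used throughout. It holds the genes whose call stayed in the same direction when each of the 4 libraries without ABA was left out in turn, here termed retained calls. There were 1095 retained calls (5.21% of features), 519 higher (2.47%) and 576 lower (2.74%). Leaving out wild-type replicate 2 removed the most calls, 2939, and leaving out skip-1 replicate 2 the fewest, 1496. With 2 libraries a group, 63.0% of all features had groups that did not overlap, so absence of overlap on its own says little here. Where the text gives list counts "in turn", they are those without wild-type replicate 1, wild-type replicate 2, skip-1 replicate 1 and skip-1 replicate 2, in this order. Every count of list members called is to be read beside the shares of all features, 10.4% higher and 10% lower.

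**Figure D1:**
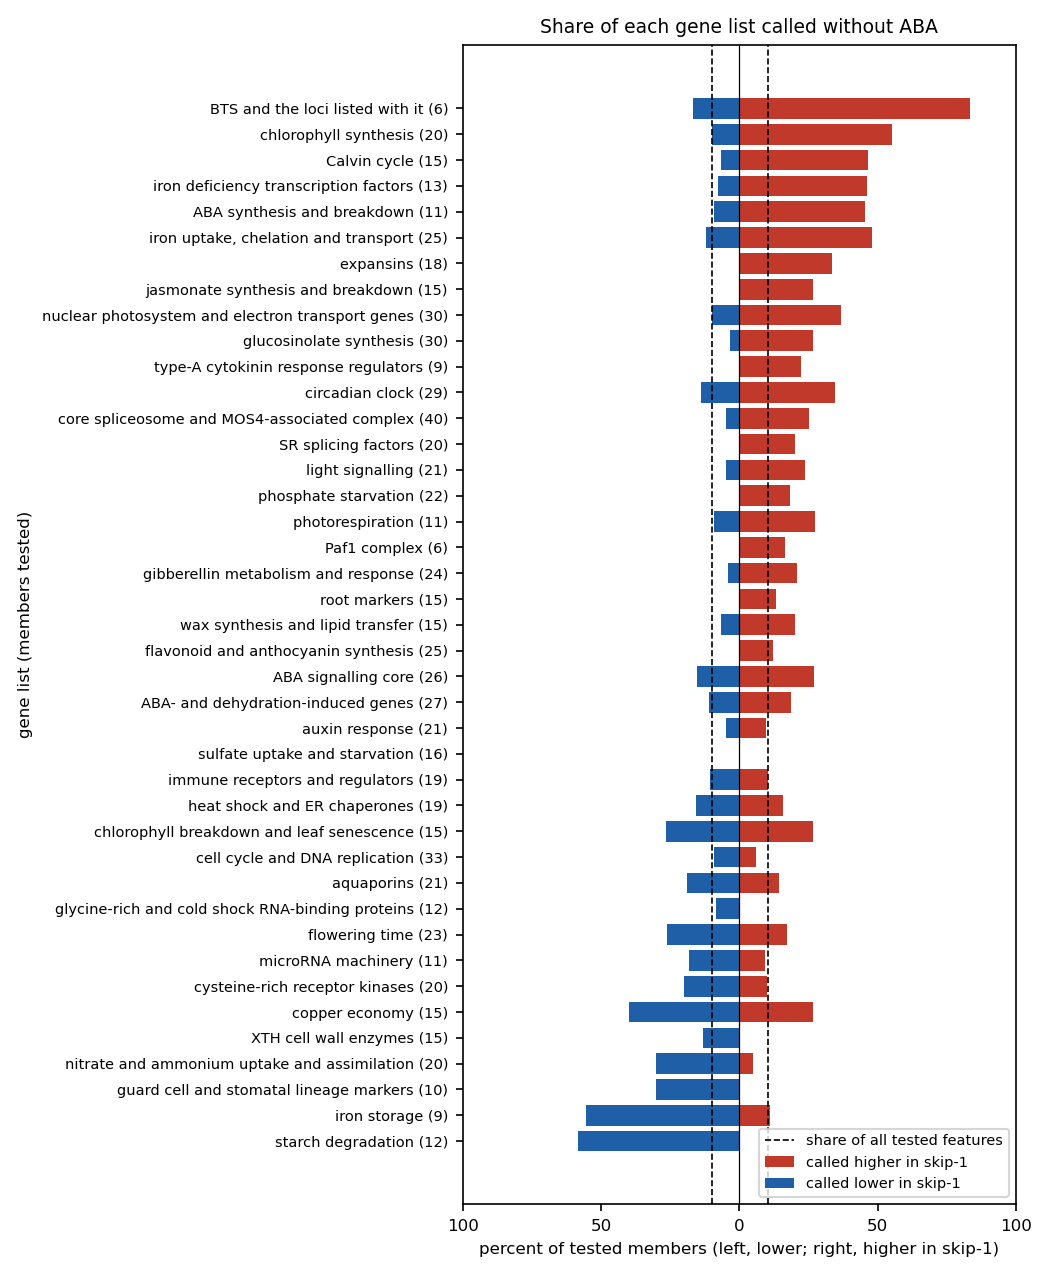
Percent of the tested members of each gene list (y axis, number tested in parentheses) that were called higher (red, to the right) or lower (blue, to the left) in skip-1 without ABA, for the 41 lists with at least 5 tested members. Dashed lines mark the shares among all tested features, 10.4% higher and 10% lower, and lists are ordered by the difference of both shares, with BTS and its 5 loci and chlorophyll synthesis at the top and iron storage and starch degradation at the bottom.

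Genes of iron homeostasis stood far apart between the genotypes. Arabidopsis takes up iron by acidifying the soil, reducing ferric iron at the root surface and importing the ferrous ion, and a cascade of bHLH transcription factors switches these steps on when iron is short. The same cascade lowers ferritins, which store iron in plastids. In skip-1 without ABA, many genes that rise in iron shortage were higher. Of 9 members of the iron storage list 5 were lower, while several factors at the top of the cascade did not pass the test.

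Among 13 tested iron-deficiency transcription factors 6 were called higher and 1 lower, against 10.4% and 10% of all features, and the median log2 fold change of the list was 0.80 beside 0.02 over all features. The largest differences were in the 4 closely related factors bHLH38, bHLH39, bHLH100 and bHLH101, which pair with the factor FRU to activate uptake genes. bHLH38 stood at 3.41 and 0.851 CPM in wild type and 237 and 156 CPM in skip-1 (log2 fold change 6.53 ± 0.55, adjusted p = 0.00129). The neighbouring bHLH39 measured 6.65 and 2.27 CPM in wild type and 157 and 118 CPM in skip-1, a log2 fold change of 4.95 ± 0.49. For bHLH101 the values were 2.37 and 0.365 CPM in wild type and 62.4 and 47.9 CPM in skip-1, a log2 fold change of 5.34 ± 0.69. In these genes the wild-type libraries differed from each other several-fold, with replicate 2 the lower, yet both mutant libraries stood far above both. bHLH100 spread most in wild type, with 5.07 and 0.284 CPM in wild type and 191 and 103 CPM in skip-1. Its call (log2 fold change 5.79 ± 0.89, adjusted p = 0.00917) was lost without skip-1 replicate 1, where the adjusted p reached 0.0537.

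PYE, a bHLH repressor that tempers the iron-deficiency response, rose from 13.7 and 11.8 CPM to 54.4 and 40.1 CPM (log2 fold change 1.89 ± 0.19, adjusted p = 0.000859). MYB10, a MYB factor needed for growth in low iron, was at 2.33 and 2.39 CPM in wild type and 4.13 and 4.09 CPM in skip-1 (log2 fold change 0.80 ± 0.22, adjusted p = 0.0351). The lower member was bHLH11, a repressor of iron uptake genes, with 0.997 and 1.5 CPM in wild type and 0.401 and 0.141 CPM in skip-1 (log2 fold change -2.14 ± 0.51, adjusted p = 0.0204). Its call was lost without wild-type replicate 2 or skip-1 replicate 2, and that of MYB10 without any 1 of the 4 libraries, with adjusted p up to 0.124 and 0.142. FRU itself stood at 7.48 and 4.90 CPM in wild type and 3.77 and 2.92 CPM in skip-1 and was not called (adjusted p = 0.15), and neither were ILR3, bHLH34, bHLH104, bHLH115 and bHLH121, the factors that act above the cascade, whose log2 fold changes ran from -0.29 to 1.07. The counts of factors called higher were 5, 5, 4 and 6 in turn.

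All 6 members of the next list were called and retained: BTS, a ubiquitin ligase that binds iron and marks bHLH factors for degradation, and 5 loci listed with it that RefSeq gives no name. BTS was among the more abundant iron genes at 140.0 and 91.8 CPM in wild type and 618 and 464 CPM in skip-1 (log2 fold change 2.22 ± 0.22, adjusted p = 0.00108). AT1G47395 and AT1G47400, adjacent single-exon loci on chromosome 1 with no annotated function, stood at 8.60 and 2.84 CPM in wild type and 249 and 191 CPM in skip-1 and at 5.61 and 1.74 CPM in wild type and 115 and 79.9 CPM in skip-1. Their log2 fold changes were 5.27 ± 0.61 and 4.73 ± 0.61. AT2G30766, also without an annotated function, measured 0.831 and 0.567 CPM in wild type and 18.5 and 8.56 CPM in skip-1 (log2 fold change 4.27 ± 0.54, adjusted p = 0.00305). Of 2 loci annotated as zinc ion binding proteins, AT1G74770 was higher (7.89 and 4.50 CPM in wild type and 22.1 and 18.6 CPM in skip-1, log2 fold change 1.72 ± 0.26, adjusted p = 0.00443) and AT1G18910 lower (9.97 and 8.87 CPM in wild type and 5.17 and 4.47 CPM in skip-1, log2 fold change -0.96 ± 0.17, adjusted p = 0.00734), so this pair moved in opposite directions.

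Of 25 tested genes for iron uptake, chelation and transport, 12 were called higher and 3 lower, with a median log2 fold change of 1.02, and 8 calls were retained. In turn, 12, 9, 10 and 10 were higher and 2, 1, 1 and 2 lower. FRO2, the ferric reductase of the root surface, stood at 3.74 and 1.22 CPM in wild type and 21.6 and 20.6 CPM in skip-1 (log2 fold change 3.09 ± 0.40, adjusted p = 0.00335). IRT1, the root's ferrous iron importer, measured 12.8 and 3.40 CPM in wild type and 51.1 and 58.0 CPM in skip-1 (log2 fold change 2.75 ± 0.52, adjusted p = 0.0159), and this call was lost without skip-1 replicate 1 or 2 (adjusted p up to 0.0604). NAS2 and NAS4 make nicotianamine, a chelator that carries metals within the plant, and stood at 2.41 and 1.22 CPM in wild type and 27 and 31.2 CPM in skip-1 and at 7.60 and 7.37 CPM in wild type and 39.8 and 30.3 CPM in skip-1. Their log2 fold changes were 4.0 ± 0.27 and 2.23 ± 0.30, whereas NAS1 and NAS3 were not called (-0.32 ± 0.18 and -0.20 ± 0.27).

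Genes acting in the shoot and inside the cell moved as well. OPT3, a phloem transporter through which leaves report their iron status to roots, was at 221 and 187 CPM in wild type and 862 and 727 CPM in skip-1 (log2 fold change 1.96 ± 0.17, adjusted p = 0.000592). FRO6, a reductase of leaf cell membranes, was at 21.9 and 17.5 CPM in wild type and 109 and 99.1 CPM in skip-1, and NRAMP4, which releases iron from the vacuole, at 39.9 and 38 CPM in wild type and 141 and 132 CPM in skip-1. NRAMP4 had one of the narrowest errors of the list (log2 fold change 1.81 ± 0.10, adjusted p = 7.51e-05), and the libraries of each genotype lay close together. FRO3, a mitochondrial reductase, differed by 1.84 ± 0.20 and FRO7, a chloroplast reductase, by 1.92 ± 0.37, the latter lost without wild-type replicate 1 or 2 or skip-1 replicate 1 (adjusted p up to 0.0933). The members called lower were NRAMP1, a plasma membrane importer of manganese and iron (70.6 and 68.3 CPM in wild type and 42.0 and 41.3 CPM in skip-1, log2 fold change -0.74 ± 0.11, adjusted p = 0.0034), and, less firmly, YSL1 and IREG2. YSL1, which moves nicotianamine-bound iron, was at 32.0 and 46.7 CPM in wild type and 11.6 and 21.1 CPM in skip-1, and IREG2, which loads metals into the vacuole, at 1.5 and 1.86 CPM in wild type and 0.761 and 0.799 CPM in skip-1. The call of YSL1 was lost without wild-type replicate 2 or skip-1 replicate 1 and that of IREG2 without any 1 of the 4 libraries, with adjusted p up to 0.134 and 0.239.

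The iron storage list, which also holds NEET and CGLD27, showed the opposite sign. Among 9 tested members 5 were called lower and 1 higher, all 6 retained, with a median log2 fold change of -1.31. Ferritin FER1 stood at 52.8 and 78.3 CPM in wild type and 14.2 and 15.2 CPM in skip-1, FER3 at 65.6 and 74.2 CPM in wild type and 26.2 and 30.1 CPM in skip-1 and FER4 at 31.4 and 46.5 CPM in wild type and 4.97 and 9.36 CPM in skip-1. Their log2 fold changes were -2.16 ± 0.29, -1.31 ± 0.15 and -2.45 ± 0.32, while the rarer ferritin FER2 was not called (0.46 ± 0.39). VTL5, annotated as a vacuolar iron transporter family member, fell from 60.8 and 66.7 CPM to 9.13 and 11.9 CPM (log2 fold change -2.60 ± 0.15, adjusted p = 8.24e-05). NEET, an iron-sulfur cluster protein of organelles, fell from 22.1 and 17.7 CPM to 3.41 and 2.35 CPM (log2 fold change -2.78 ± 0.23, adjusted p = 0.000481). The member that rose was CGLD27, a gene conserved in green plants, at 40.9 and 27.6 CPM in wild type and 298 and 193 CPM in skip-1 (log2 fold change 2.84 ± 0.28, adjusted p = 0.0015).

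**Figure D2:**
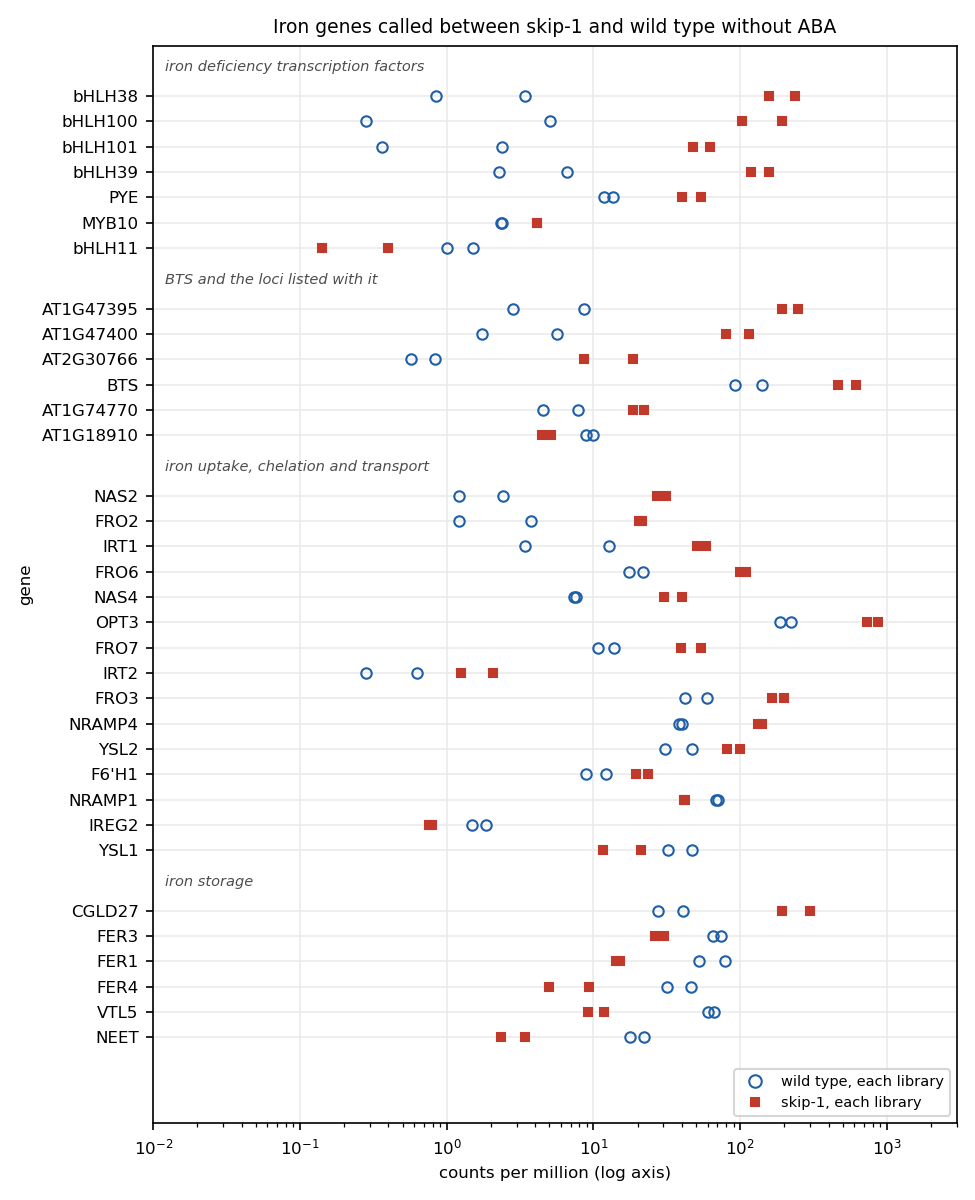
CPM (x axis, log scale) in each library without ABA for the 34 iron genes called between skip-1 and wild type, grouped by list, with 1 open circle per wild-type library and 1 filled square per skip-1 library. In every gene shown the squares and circles do not overlap, but these genes were chosen by their calls on the same libraries. Of all tested features 63.0% had groups without overlap. The wild-type circles lie far apart for bHLH100, bHLH101 and IRT1.

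Genes of copper economy include copper transporters and the superoxide dismutases that use copper or, in its place, iron. In this list 4 of 15 members were called higher and 6 lower, against 10.4% and 10% of all features. The iron superoxide dismutase FSD1 fell from 1209 and 1456 CPM to 376 and 569 CPM (log2 fold change -1.5 ± 0.19, adjusted p = 0.00202). The copper-zinc superoxide dismutase CSD2 fell from 23.3 and 26.3 CPM to 10.5 and 7.57 CPM (log2 fold change -1.46 ± 0.20, adjusted p = 0.00232), and its cytosolic relative CSD1 by 1.02 on the log2 scale. CCH, a copper chaperone, rose with 273 and 312 CPM in wild type and 478 and 501 CPM in skip-1 (log2 fold change 0.74 ± 0.10, adjusted p = 0.00255), and COPT2, a copper importer, was at 8.02 and 7.13 CPM in wild type and 25.9 and 17.5 CPM in skip-1 (log2 fold change 1.52 ± 0.29, adjusted p = 0.0105). The iron and the copper dismutases were thus lower in the same libraries. In turn, 3, 2, 3 and 4 members were called higher and 5, 3, 5 and 4 lower. The call of COPT2 was lost without wild-type replicate 1 or 2, and that of CSD1 without wild-type replicate 2.

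The G-box CACGTG, a motif bound by bHLH and bZIP factors, was counted on both strands in the 250 bases before the annotated gene start of each tested gene, on RefSeq's TAIR10.1 sequence. It lay in 7.52% of the 20805 windows that could be read, in 10.5% of those of genes called higher and in 5.41% of those of genes called lower. Among retained calls the shares were 13.6% for higher and 4.87% for lower. The overlapping ABA-type motif ACGTGT stood in 11.5% of all windows, 15.0% of the higher and 9.81% of the lower, and the related ACGTGGC in 3.88%, 5.23% and 3.54%. The general E-box CANNTG, which contains the G-box, was in 56.4% of all windows, 57.6% of the higher and 58.1% of the lower, and the evening element AAATATCT in 4.94%, 4.81% and 5.65%. TTGAC, the core of the W-box, was in 44.9%, 46.3% and 45.2%, and GCCGCC in 1.99%, 2.03% and 2.01%. TGGGCC, the site II element, was in 16.1% of all windows, 15.3% of the higher and 12.1% of the lower, and in 10.9% and 11.1% of retained higher and lower calls, so it was less frequent in both directions among retained calls. With ABA the G-box was in 7.90% of windows of genes higher in skip-1 and 9.64% of those lower, so the order of both directions was the other way round. These shares are descriptions, and the motifs were chosen after the calls were known.

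Windows of 4 of the 6 iron genes called higher that hold the motif are shown because they span a pair of transcription factors, a sensor and a transporter. Sequences run 5′ to 3′ on the gene's strand, ending at the base before the RefSeq gene start, with G-boxes in capitals.
bHLH38, chr3:21085246-21085495, minus strand: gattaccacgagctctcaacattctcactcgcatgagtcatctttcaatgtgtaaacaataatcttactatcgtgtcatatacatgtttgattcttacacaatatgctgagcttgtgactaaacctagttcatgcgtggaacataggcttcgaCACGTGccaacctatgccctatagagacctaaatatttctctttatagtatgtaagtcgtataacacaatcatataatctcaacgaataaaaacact
bHLH100, chr2:17199455-17199704, minus strand: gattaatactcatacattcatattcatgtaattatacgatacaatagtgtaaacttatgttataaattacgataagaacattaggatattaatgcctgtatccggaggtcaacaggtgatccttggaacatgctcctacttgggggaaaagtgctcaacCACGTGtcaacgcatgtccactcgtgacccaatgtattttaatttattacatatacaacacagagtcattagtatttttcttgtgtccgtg
BTS, chr3:6273716-6273965, plus strand: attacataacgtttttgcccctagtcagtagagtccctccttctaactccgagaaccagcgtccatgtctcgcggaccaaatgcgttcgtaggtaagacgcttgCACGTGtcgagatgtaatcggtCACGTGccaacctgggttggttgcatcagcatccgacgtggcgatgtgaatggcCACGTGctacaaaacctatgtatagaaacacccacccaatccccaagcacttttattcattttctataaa
OPT3, chr4:9250344-9250593, minus strand: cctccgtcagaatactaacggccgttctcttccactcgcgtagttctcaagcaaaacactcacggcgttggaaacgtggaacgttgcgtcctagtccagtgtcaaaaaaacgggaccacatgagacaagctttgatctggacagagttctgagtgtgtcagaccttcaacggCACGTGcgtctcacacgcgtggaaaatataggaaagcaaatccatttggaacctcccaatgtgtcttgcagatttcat
BTS holds 3 copies, which begin 146, 124 and 70 bases before its start, whereas bHLH38, bHLH100 and OPT3 hold 1 each, 97, 91 and 78 bases before theirs. The motif was in 3 of 13 windows of the transcription factors, 1 of 6 of the BTS list, 3 of 25 of uptake genes and 2 of 9 of the storage list. It was not tied to one direction, since FRO6 and FRO7 with the motif were higher whereas bHLH11, FER3 and FER4 with it were lower.

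Clock genes formed the second set with large differences. The plant clock is a loop in which the MYB factors CCA1 and LHY peak in the morning and repress evening genes such as TOC1, while pseudo-response regulators (PRR9, PRR7, PRR5, TOC1) are expressed one after another through the day and repress CCA1 and LHY. The evening complex of ELF3, ELF4 and LUX closes the loop. In skip-1 without ABA, 10 of 29 clock genes were called higher and 4 lower, with a median log2 fold change of 0.79. Morning genes were among the higher ones and evening genes among the lower ones. Only 3 of the 14 calls were retained, and in turn 3, 3, 5 and 6 members were called higher and 3, 2, 2 and 5 lower. DESeq2 called 15 higher and 6 lower. Because clock transcripts change through the day and the hour of harvest is not given for any library, the part of harvest time in these values was not tested.

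CCA1 measured 0.955 and 0.810 CPM in wild type and 35.8 and 9.36 CPM in skip-1, and LHY 0.914 and 0.608 CPM in wild type and 6.77 and 2.77 CPM in skip-1. Both were near 1 CPM or under in both wild-type libraries and higher in both mutant libraries, replicate 1 of skip-1 being the higher one. CCA1 differed by 4.68 ± 0.78 on the log2 scale (adjusted p = 0.0109), and LHY by 2.65 ± 0.45 (adjusted p = 0.00628). PRR9, the first regulator of the morning wave, stood at 0.582 and 0.203 CPM in wild type and 13.5 and 6.68 CPM in skip-1 (log2 fold change 4.68 ± 0.94, adjusted p = 0.0188). LNK3 and LNK4, of the family of the morning coactivators LNK1 and LNK2, stood at 0.582 and 0.851 CPM in wild type and 19.3 and 9.64 CPM in skip-1 and at 4.98 and 3.08 CPM in wild type and 26.8 and 16.8 CPM in skip-1. RVE8, a MYB activator that works with that family, was at 0.582 and 0.405 CPM in wild type and 7.41 and 2.07 CPM in skip-1. The pattern in which skip-1 replicate 1 lay above replicate 2 held in each of CCA1, LHY, PRR9, LNK3, LNK4 and RVE8. The call of LHY was lost without wild-type replicate 2 (adjusted p up to 0.0592). Those of LNK3, CCA1 and RVE8 were each lost without wild-type replicate 1 or 2, with adjusted p up to 0.0516, 0.0873 and 0.105. PRR9 lost its call without wild-type replicate 1 or 2 or skip-1 replicate 1 (up to 0.124), and LNK4 without any 1 of the 4 libraries (up to 0.208). All of these 6 genes but LNK3 were named after their values were seen.

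Among members called lower, PRR3 fell from 44.5 and 41.2 CPM to 12.4 and 14.4 CPM (log2 fold change -1.67 ± 0.20, adjusted p = 0.00179) and ELF3 from 73.2 and 77.2 CPM to 45.6 and 52.3 CPM (log2 fold change -0.62 ± 0.10, adjusted p = 0.00539), both retained. ELF4 stood at 131 and 121 CPM in wild type and 37.4 and 58.4 CPM in skip-1 and TOC1 at 170.2 and 180.0 CPM in wild type and 77.1 and 123 CPM in skip-1, and both calls were lost without wild-type replicate 1 or 2 or skip-1 replicate 1 (adjusted p up to 0.0785 and 0.16). LUX, the DNA-binding protein of the evening complex, was not called, with 134 and 136 CPM in wild type and 63.3 and 116 CPM in skip-1 and adjusted p = 0.255. CDF1, a repressor of the flowering gene FT, rose from 3.70 and 4.90 CPM to 18.5 and 13.9 CPM (log2 fold change 1.91 ± 0.29, adjusted p = 0.0056), and this call was retained.

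Of the 29 clock genes 10 held a G-box in the window before their start, among them 4 of the 10 called higher. Those 4 windows are shown because they are the clock genes called higher that hold the motif.
CCA1, chr2:19245341-19245590, plus strand: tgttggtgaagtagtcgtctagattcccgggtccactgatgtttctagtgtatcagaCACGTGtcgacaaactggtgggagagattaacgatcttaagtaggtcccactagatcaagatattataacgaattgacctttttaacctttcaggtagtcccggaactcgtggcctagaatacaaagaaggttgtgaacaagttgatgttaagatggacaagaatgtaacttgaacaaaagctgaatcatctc
LHY, chr1:37872-38121, minus strand: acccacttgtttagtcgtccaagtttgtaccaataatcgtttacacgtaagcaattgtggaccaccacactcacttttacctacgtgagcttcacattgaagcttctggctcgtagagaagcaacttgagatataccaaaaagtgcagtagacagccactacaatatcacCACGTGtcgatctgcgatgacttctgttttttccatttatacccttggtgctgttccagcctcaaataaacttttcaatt
LNK3, chr3:3923265-3923514, plus strand: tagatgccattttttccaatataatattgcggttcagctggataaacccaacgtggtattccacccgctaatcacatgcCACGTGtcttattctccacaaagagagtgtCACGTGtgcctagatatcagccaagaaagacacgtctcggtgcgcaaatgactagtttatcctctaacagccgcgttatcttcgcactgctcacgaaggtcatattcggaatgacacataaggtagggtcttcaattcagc
PRR9, chr2:19232357-19232606, plus strand: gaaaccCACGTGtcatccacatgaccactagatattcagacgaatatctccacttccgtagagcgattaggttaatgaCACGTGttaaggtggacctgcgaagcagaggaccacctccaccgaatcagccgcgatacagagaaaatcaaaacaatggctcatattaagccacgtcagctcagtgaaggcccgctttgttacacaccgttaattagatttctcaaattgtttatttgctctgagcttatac
CCA1 and LHY hold 1 copy each, which begins 193 and 80 bases before the gene start, while LNK3 holds copies at 171 and 141 bases and PRR9 at 244 and 172 bases.

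Flowering-time genes split in direction, with 6 of 23 called lower and 4 higher, against 10% and 10.4% of all features. FLC, the MADS-box repressor through which vernalization acts, stood at 1.91 and 2.63 CPM in wild type and 0.0801 and 0.188 CPM in skip-1 (log2 fold change -4.07 ± 0.48, adjusted p = 0.00142), so both mutant libraries held almost no reads of it. Its relative MAF2 fell from 33.3 and 28.5 CPM to 16.9 and 12.5 CPM (log2 fold change -1.07 ± 0.16, adjusted p = 0.00342). FT, the mobile flowering signal made in leaves, fell too, from 8.23 and 10.2 CPM to 2.24 and 2.68 CPM (log2 fold change -1.91 ± 0.21, adjusted p = 0.00108). A repressor and the signal it represses were therefore both lower, and all 3 calls were retained. MAF5, FLM and AGL24 were also called lower, by 1.77, 0.73 and 1.16 on the log2 scale. MAF5 lost its call without wild-type replicate 1 or skip-1 replicate 1, FLM without wild-type replicate 1 or 2 or skip-1 replicate 2 and AGL24 without wild-type replicate 1. SOC1, which integrates flowering signals, was at 23.0 and 23.5 CPM in wild type and 34.6 and 35.8 CPM in skip-1 (log2 fold change 0.60 ± 0.11, adjusted p = 0.00772), a call lost without wild-type replicate 1 or 2 (adjusted p up to 0.0515). TOE1, FUL and SPL4 made up the rest of the higher calls (0.73 ± 0.17, 1.16 ± 0.33 and 0.80 ± 0.24), and none of these 4 stayed called without wild-type replicate 1 or without wild-type replicate 2. In turn, 0, 0, 1 and 3 members were higher and 3, 5, 5 and 6 lower.

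**Figure D3:**
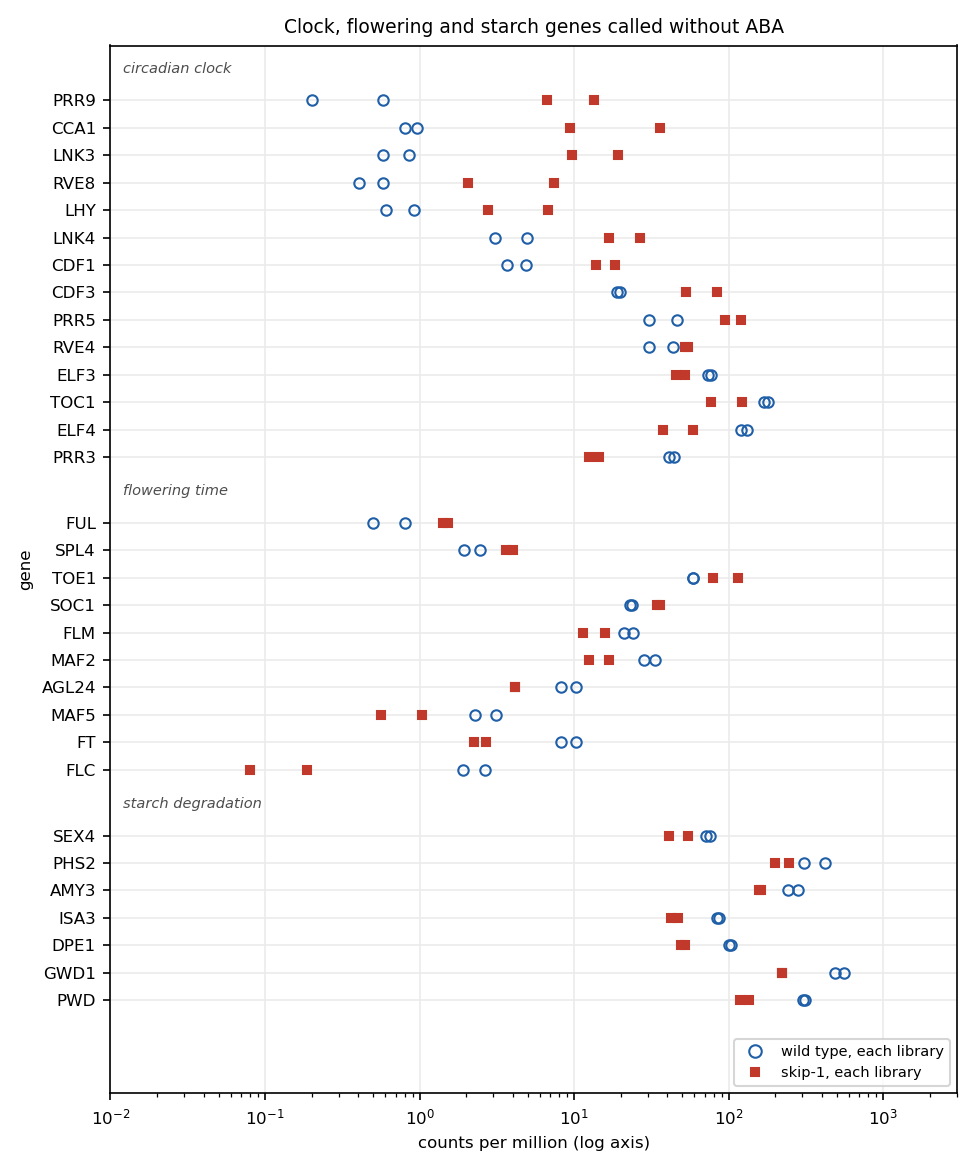
CPM (x axis, log scale) in each library without ABA for every called gene of the clock, flowering-time and starch degradation lists, with 1 open circle per wild-type library and 1 filled square per skip-1 library. CCA1, PRR9 and LNK3 sit under 1 CPM in wild type and between 6.68 and 35.8 CPM in skip-1, with the mutant libraries apart from each other, while the starch genes show narrow pairs.

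Starch degradation was the list with the highest share of lower calls. Leaves build starch by day and break it down at night, and the breakdown begins when GWD1 and PWD phosphorylate the granule surface. In skip-1 7 of 12 members were called lower, none higher, with a median log2 fold change of -0.67. GWD1 fell from 557 and 489.9 CPM to 222 and 219.8 CPM (log2 fold change -1.25 ± 0.11, adjusted p = 0.000481), and PWD from 301 and 312 CPM to 119 and 136 CPM (log2 fold change -1.27 ± 0.10, adjusted p = 0.00033). DPE1, which rearranges the released glucan chains, fell from 103 and 101 CPM to 49.2 and 52.5 CPM, and ISA3, the debranching enzyme, from 86.3 and 84.2 CPM to 46.7 and 42.1 CPM. AMY3, a plastid amylase, fell from 281 and 242 CPM to 156 and 161 CPM (log2 fold change -0.72 ± 0.13, adjusted p = 0.00667). The libraries of each genotype lay close together in these 5 genes, and all 5 calls were retained. SEX4 and PHS2 were called as well (-0.62 ± 0.14 and -0.71 ± 0.16) but SEX4 lost the call without wild-type replicate 1 or 2 or skip-1 replicate 2 and PHS2 without wild-type replicate 1 or skip-1 replicate 2. The beta-amylases BAM1 and BAM3 and the maltose exporter MEX1 were not called (0.53 ± 0.23, -0.32 ± 0.17 and 0.31 ± 0.11). In turn, 5, 6, 7 and 5 members were called lower.

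Chlorophyll synthesis showed the reverse. Of 20 members 11 were called higher and 2 lower, and 5 calls were retained. PORA, a light-dependent protochlorophyllide oxidoreductase of dark-grown seedlings, rose from 1.74 and 1.42 CPM to 17.4 and 21.1 CPM (log2 fold change 3.6 ± 0.27, adjusted p = 0.0003). CAO, which makes chlorophyll b, rose from 44.7 and 39.7 CPM to 274 and 186 CPM (log2 fold change 2.45 ± 0.20, adjusted p = 0.000599). CRD1, a subunit of the iron-containing cyclase that forms the fifth ring, rose from 545 and 419 CPM to 1642 and 1394 CPM (log2 fold change 1.66 ± 0.18, adjusted p = 0.00108). GUN5, the large subunit of magnesium chelatase, was at 528 and 469.9 CPM in wild type and 1374 and 1148 CPM in skip-1 (log2 fold change 1.34 ± 0.13, adjusted p = 0.000776), and PORB at 722 and 521 CPM in wild type and 1165 and 1447 CPM in skip-1 (log2 fold change 1.07 ± 0.17, adjusted p = 0.00505). The 2 lower members act early, before magnesium enters the ring: GSA1 (-0.43 ± 0.10) and HEMB1 (-0.45 ± 0.10), and both calls were lost without wild-type replicate 1 or 2 or skip-1 replicate 1. The key early enzyme HEMA1 was not called (-0.13 ± 0.15). In turn, 8, 5, 8 and 10 members were called higher and 0, 0, 0 and 2 lower.

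Breakdown of chlorophyll differed by step. NYC1 and NOL, the reductases of chlorophyll b, were both lower, at 251 and 267 CPM in wild type and 55.6 and 106 CPM in skip-1 and 26.3 and 25.4 CPM in wild type and 13.3 and 12.6 CPM in skip-1, and only the call of NOL was retained (log2 fold change -1.0 ± 0.12, adjusted p = 0.0016), that of NYC1 being lost without wild-type replicate 2 (adjusted p up to 0.0582). In the wider list of chlorophyll breakdown and leaf senescence 4 of 15 members were called in each direction. Among them the senescence-associated genes SAG29, a sugar transporter, and DIN1 moved apart, SAG29 being at 0.748 and 0.648 CPM in wild type and 23.6 and 8.98 CPM in skip-1 and DIN1 at 567 and 519 CPM in wild type and 103 and 194 CPM in skip-1. SAG29 lost its call without wild-type replicate 2, and DIN1 without wild-type replicate 1 or 2. In turn, 1, 0, 3 and 3 members of the list were higher and 3, 1, 3 and 4 lower.

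In the photosynthetic machinery, 11 of 30 nuclear genes for photosystems and electron transport were called higher and 3 lower. PSBS, the sensor of excess light in photosystem II, rose from 532 and 437 CPM to 1254 and 1058 CPM (log2 fold change 1.25 ± 0.14, adjusted p = 0.00132), and PSBO2 and PSAH2 by 0.96 ± 0.13 and 1.0 ± 0.16. The 3 that fell belong to the electron chain between and after the photosystems: the Rieske protein PETC (-0.41 ± 0.10), the ferredoxin FD2 (-0.76 ± 0.11) and its reductase FNR2 (-0.81 ± 0.15), while plastocyanin PETE1 of the copper list was at 106 and 78.3 CPM in wild type and 189 and 148 CPM in skip-1 (log2 fold change 0.87 ± 0.18, adjusted p = 0.0142). FD2 fell from 873 and 931 CPM to 524 and 544 CPM and FNR2 from 817 and 614 CPM to 439.6 and 376 CPM, and both calls were retained, whereas PETC's was lost without any 1 of the 4 libraries and PETE1's without wild-type replicate 2 or skip-1 replicate 1. In turn, 7, 4, 5 and 7 photosystem and electron transport genes were called higher. The Calvin cycle list had 7 of 15 higher and 1 lower, RPE, which fell from 449 and 461 CPM to 261 and 271 CPM (log2 fold change -0.77 ± 0.09, adjusted p = 0.00142), and in turn 4, 1, 3 and 9 were higher. In photorespiration 3 of 11 were higher, CAT2, the leaf catalase, among them (155 and 132 CPM in wild type and 513 and 317 CPM in skip-1, log2 fold change 1.53 ± 0.22, adjusted p = 0.00419), and 1 lower, the higher counts being 1, 2, 1 and 5 in turn.

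Loci of the chloroplast genome were also higher. Of 86 tested, 61 (70.9%) were called higher and 0 lower, with a median log2 fold change of 0.90, and 21 calls were retained. Their summed counts made 0.701% and 0.642% of the wild-type libraries and 0.883% and 0.948% of the skip-1 libraries. DESeq2 called 56 of them higher and 0 lower, and in turn 38, 22, 59 and 45 were higher. Both tested 18S ribosomal RNA loci were called higher as well. AT2G01010 stood at 3.53 and 2.79 CPM in wild type and 7.77 and 9.78 CPM in skip-1 (log2 fold change 1.47 ± 0.22, adjusted p = 0.00367), a retained call. AT3G41768 stood at 23.4 and 22.5 CPM in wild type and 30.7 and 46.0 CPM in skip-1 (0.74 ± 0.18, adjusted p = 0.0225), a call lost without either wild-type library or without skip-1 replicate 2. The part of such RNAs, which carry no long poly(A) tail in mature form, in the nuclear values was not tested. Of 32 tested loci of the mitochondrial genome 4 (12.5%) were called in each direction, with a median log2 fold change of 0.02. The shares over all features were 10.4% higher and 10% lower. In whole seedlings, more cells with chloroplasts, more chloroplast RNA per cell and a different recovery of RNAs without long poly(A) tails cannot be told apart.

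Genes of the ABA signalling core differed without added ABA. In this pathway the receptors of the PYR and PYL family bind ABA and then block type 2C phosphatases, which frees SnRK2 kinases to activate bZIP factors. In skip-1 without ABA, 7 of 26 members were called higher and 4 lower. Receptors were among the lower ones: PYR1 at 80.0 and 89.0 CPM in wild type and 45.8 and 51.6 CPM in skip-1, PYL4 at 108 and 116 CPM in wild type and 45.6 and 52.9 CPM in skip-1 and PYL6 at 25.3 and 29.3 CPM in wild type and 8.65 and 13.1 CPM in skip-1, with log2 fold changes of -0.80 ± 0.14, -1.18 ± 0.21 and -1.33 ± 0.23. Phosphatases made up 5 of the 7 higher ones, PP2CA (1.29 ± 0.23), HAB2 (0.51 ± 0.10), ABI1 (0.82 ± 0.19), ABI2 (0.80 ± 0.17) and HAI2 (2.12 ± 0.51), a grouping seen only after the values were known. PP2CA rose from 31.0 and 43.7 CPM to 76.8 and 106 CPM. The kinase SNRK2.3 rose from 40.6 and 32.5 CPM to 63.5 and 60.1 CPM (log2 fold change 0.76 ± 0.13, adjusted p = 0.00531), and the bZIP factor ABF3 from 26.6 and 34.9 CPM to 56.4 and 52.0 CPM (log2 fold change 0.82 ± 0.15, adjusted p = 0.00728), while its relative ABI5 was at 5.28 and 6.52 CPM in wild type and 2.68 and 3.81 CPM in skip-1 (log2 fold change -0.87 ± 0.22, adjusted p = 0.0257). Of the 7 higher calls 3 were retained, so not all 5 phosphatases kept theirs. The 4 lower members all lost their calls without wild-type replicate 2, and in turn 4, 3, 7 and 6 members were higher and 4, 0, 3 and 6 lower.

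Genes known to be induced by ABA and dehydration went both ways, 5 of 27 higher and 3 lower. The shares over all features were 10.4% and 10%. P5CS1, which makes proline, rose from 54.9 and 59.3 CPM to 260.1 and 215 CPM (log2 fold change 2.06 ± 0.27, adjusted p = 0.00316). HB7, a homeobox factor, rose from 24.1 and 28.8 CPM to 70.0 and 81.6 CPM (log2 fold change 1.52 ± 0.13, adjusted p = 0.000411), and GOLS2, which makes galactinol, from 3.82 and 3.97 CPM to 13.1 and 18.2 CPM (log2 fold change 2.00 ± 0.17, adjusted p = 0.000481). RD22 rose from 197 and 204 CPM to 303 and 389.5 CPM (log2 fold change 0.79 ± 0.14, adjusted p = 0.00667). Each of these 4 calls was retained. LEA14, LTI30 and COR15B, proteins that accumulate in dry or cold tissue, were lower by 0.67, 0.60 and 1.03 on the log2 scale. LEA14 lost its call without wild-type replicate 1 or skip-1 replicate 1, LTI30 without wild-type replicate 2 and COR15B without wild-type replicate 2 or skip-1 replicate 1. In turn, 4, 4, 8 and 5 members were higher and 2, 1, 1 and 7 lower, and DESeq2 called 8 higher.

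For ABA's own turnover, 5 of 11 genes were called higher and 1 lower. Steps of synthesis and of breakdown were both among the higher ones: ABA1, the zeaxanthin epoxidase, rose from 62.7 and 44.4 CPM to 242 and 161 CPM (log2 fold change 1.92 ± 0.24, adjusted p = 0.00261), ABA2, which makes abscisic aldehyde, from 11 and 9.96 CPM to 26.1 and 23.1 CPM, and CYP707A1, an ABA hydroxylase, from 5.07 and 6.12 CPM to 10.4 and 9.59 CPM. BG1, the beta-glucosidase that frees ABA from its glucose ester, rose from 88.6 and 89.1 CPM to 238 and 256 CPM (log2 fold change 1.48 ± 0.15, adjusted p = 0.000817). The lower one was AAO3, the oxidase of the last step, at 28.6 and 23.5 CPM in wild type and 14.5 and 17.4 CPM in skip-1 (log2 fold change -0.71 ± 0.14, adjusted p = 0.00945), and its call was lost without wild-type replicate 1.

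Splicing factors, the proteins SKIP works with, gave 3 retained calls in the spliceosome list and 1 among SR proteins. Of 40 core spliceosome and MOS4-associated genes 10 were called higher and 2 lower, beside 10.4% and 10% of all features. In turn, however, 4, 3, 7 and 6 were higher and 0, 0, 0 and 1 lower, and DESeq2 called 5 and 0. AT1G28060, annotated as pre-mRNA-splicing factor 3, rose from 54.5 and 49.1 CPM to 94.2 and 102 CPM (log2 fold change 0.92 ± 0.10, adjusted p = 0.00116), and the RNA-binding protein MAC5A from 49.1 and 49.0 CPM to 74.1 and 81.8 CPM (log2 fold change 0.67 ± 0.10, adjusted p = 0.00328). AT4G38780, annotated as pre-mRNA-processing-splicing factor-like, rose from 1.83 and 1.90 CPM to 6.37 and 5.41 CPM (log2 fold change 1.66 ± 0.21, adjusted p = 0.00197). Reads it may share with a near-identical copy cannot be separated in these counts. These 3 calls were retained. Among 20 SR proteins, which choose splice sites, 4 were called higher, RSZ22a (0.61 ± 0.09), SCL33 (0.53 ± 0.13), RS2Z33 (0.47 ± 0.11) and RS2Z32 (0.30 ± 0.09), and only that of RSZ22a was retained, with 1, 1, 2 and 2 called in turn. In the Paf1 complex 1 of 6 was called, VIP3 (0.33 ± 0.10), and that call was lost without any 1 of the 4 libraries. Of 12 glycine-rich and cold shock RNA-binding proteins 1 was called, GRP8 (-0.53 ± 0.15), lost without any 1 of the 4 libraries. The counts are of whole genes, so splicing itself was not measured.

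Calls leaned with the number of introns. Among 20289 tested protein-coding genes, 10.1% were higher and 10% lower. Genes with at least 10 introns in a RefSeq transcript were called lower in 15.3% of 3414 cases and higher in 6.03%. Genes with 2 to 4 introns showed the other order, 7.54% lower and 12.7% higher, and genes without introns were higher in 6.60% and lower in 10.3%. Retained calls kept this order in the group with at least 10 introns, at 4.95% lower and 1.38% higher. Depth is one property that goes with intron number: with protein-coding genes split by abundance into 3 equal classes, the lower share of the genes with at least 10 introns was 7.65%, 12.9% and 19.8% from the least to the most abundant class, beside higher shares of 7.99%, 6.90% and 4.68%. In the least abundant class the lower share was thus no larger than the higher one. With ABA the same genes were lower in 16.8% and higher in 13.3%, near that comparison's background of 17.6% and 13.4%. Genes without introns, however, were lower in 26.3% and higher in 6.70% with ABA under TMM scaling. For the comparison without ABA, the lower share of the genes with at least 10 introns was in turn 7.09%, 6.33%, 10.3% and 10.3%, and the higher share 2.81%, 1.55%, 2.23% and 6.27%. The intron classes were chosen after the calls were known.

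**Figure D4:**
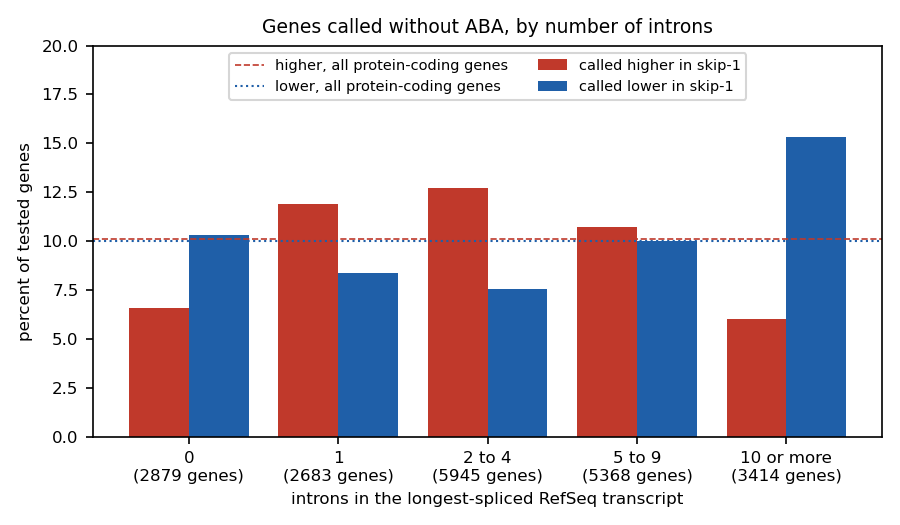
Percent of tested protein-coding genes (y axis) called higher (red) or lower (blue) in skip-1 without ABA, by the largest number of introns in a RefSeq transcript of the gene (x axis, number of genes in parentheses). Horizontal lines give the shares over all protein-coding genes, 10.1% higher and 10% lower, and the blue bar is tallest, at 15.3%, in genes with at least 10 introns.

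Growth and transport genes followed with smaller sets, to be read beside the 10.4% higher and 10% lower of all features. Of 18 expansins, which loosen cell walls, 6 were called higher and 0 lower. EXPA1 rose from 124 and 166 CPM to 428 and 546 CPM (log2 fold change 1.75 ± 0.16, adjusted p = 0.000661) and EXPA4 from 72.4 and 64.4 CPM to 145 and 134 CPM (log2 fold change 1.03 ± 0.10, adjusted p = 0.000787), and in turn 5, 3, 6 and 6 were higher. XTH enzymes, which cut and join xyloglucan, had 2 of 15 lower, XTH8 (-1.08 ± 0.17) and XTH7 (-0.56 ± 0.11), the latter lost without wild-type replicate 2, with 3, 1, 2 and 4 members lower in turn. In gibberellin metabolism and response 5 of 24 were higher and 1 lower, with 2 retained, and GASA6, of a family of gibberellin-regulated peptides, stood at 80.5 and 71.3 CPM in wild type and 449 and 526 CPM in skip-1 (log2 fold change 2.68 ± 0.13, adjusted p = 6.14e-05). In turn, 3, 2, 3 and 3 of these genes were higher. For nitrogen, 6 of 20 genes were lower and 1 higher, among the lower ones NRT3.1, the partner of high-affinity nitrate transporters (25.2 and 20.5 CPM in wild type and 7.37 and 8.23 CPM in skip-1, log2 fold change -1.55 ± 0.16, adjusted p = 0.000915). In turn, 3, 3, 5 and 6 nitrogen genes were lower. In light signalling 5 of 21 were higher, among them the blue-light receptor CRY1 (121 and 119 CPM in wild type and 241 and 242 CPM in skip-1, log2 fold change 1.01 ± 0.12, adjusted p = 0.00146) and the factors PIF4 (1.42 ± 0.24) and PIF5 (1.71 ± 0.36), and HY5 was lower (-1.38 ± 0.37). PIF4 lost its call without wild-type replicate 2, and PIF5 and HY5 without any 1 of the 4 libraries, and in turn 3, 2, 3 and 6 light signalling genes were higher.

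The remaining lists held between 0 and 3 retained calls each. Over all features 10.4% were called higher and 10% lower, and several of these lists lay near or under both shares. Glucosinolate synthesis had 8 of 30 higher and 1 lower, and in turn 4, 1, 2 and 8 were higher. Jasmonate synthesis and breakdown had 4 of 15 higher and 0 lower, and in turn 1, 0, 2 and 3 were higher. Phosphate starvation had 4 of 22 higher and 0 lower, type-A cytokinin response regulators 2 of 9 higher and 0 lower, and auxin response 2 of 21 higher and 1 lower. Aquaporins had 3 of 21 higher and 4 lower, wax synthesis and lipid transfer 3 of 15 higher and 1 lower, and cell cycle and DNA replication 2 of 33 higher and 3 lower. Cysteine-rich receptor kinases had 2 of 20 higher and 4 lower, immune receptors and regulators 2 of 19 in each direction, heat shock and ER chaperones 3 of 19 in each direction, and the microRNA machinery 1 of 11 higher and 2 lower. Without wild-type replicate 2 the counts were 2 higher for phosphate starvation, 0 higher and 1 lower for aquaporins, 1 higher and 0 lower for heat shock and ER chaperones, 0 higher and 3 lower for receptor kinases, and 0 in each direction for cytokinin regulators, auxin response, cell cycle, immune genes and the microRNA machinery. Without wild-type replicate 1 the heat shock list had 0 in each direction and aquaporins 1 in each, 2 cytokinin regulators were lower and 0 higher, and 0 members were higher for auxin response, receptor kinases, immune genes and the microRNA machinery. Without skip-1 replicate 1 the cell cycle list had 0 in each direction, aquaporins had 1 higher and 2 lower, and 0 heat shock genes were lower. No member of 16 sulfate genes was called by edgeR's fit without a replicate block or by DESeq2, with 2 higher and 0 lower at an unadjusted p under 0.05. SULTR2;2, the one with the smallest adjusted p of that list, stood at 16.1 and 14.5 CPM in wild type and 22.8 and 19.1 CPM in skip-1 (adjusted p = 0.0639). Flavonoid and anthocyanin synthesis had 3 of 25 higher and 0 lower, with 2, 1, 2 and 12 higher in turn, and DESeq2 called 9. In that list DFR, which makes anthocyanin precursors, stood at 0.582 and 0.0810 CPM in wild type and 92.1 and 4.84 CPM in skip-1. Both skip-1 libraries thus lay above both wild-type libraries, with replicate 1 far above replicate 2.

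Markers of organs and cell types were read for the makeup of the seedlings, beside the 10.4% higher and 10% lower of all features. Root markers had 2 of 15 higher and 0 lower, with 0, 0, 1 and 1 higher in turn, and guard cell and stomatal lineage markers 3 of 10 lower: SPCH (-0.75 ± 0.15), TMM (-0.55 ± 0.16) and MYB60 (-0.70 ± 0.19), with 0, 0, 3 and 1 lower in turn. Of 9 seed storage markers 1 had enough reads to be tested. This was the albumin SESA2, with 0 counts in both wild-type libraries and 44 and 27 counts in skip-1, at least 25.0-fold higher against a floor of 3 counts over the group. Among the libraries without ABA it could pass the filter only through skip-1, so its direction there was fixed by the filter. With ABA SESA2 was not called (log2 fold change 2.41). Of 6 floral organ markers 2 were tested, and SEP3 was lower (21.4 and 24.5 CPM in wild type and 9.70 and 12.6 CPM in skip-1, log2 fold change -1.05 ± 0.19, adjusted p = 0.0078), a call lost without wild-type replicate 2. Fewer cells of a type and less RNA per cell cannot be told apart in these bulk samples.

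Of all retained calls at a mean log2 CPM of at least 2, the largest rises were in GASA3 and the cupin AT4G36700. Their log2 fold changes were 7.04 (adjusted p = 0.00465) and 6.95 (adjusted p = 0.000179), that of GASA3 without reads in either wild-type library. Beyond the lists, the largest retained changes included features with little annotation. The pseudogene AT4G04410 fell from 27.7 and 25.8 CPM to 0.561 and 0.611 CPM (log2 fold change -5.50 ± 0.18, adjusted p = 7.55e-06), while SADHU3-2, annotated among pseudogenes, rose from 0.374 and 0.284 CPM to 16.7 and 19.8 CPM (log2 fold change 5.77 ± 0.27, adjusted p = 6.14e-05). NDB4, an external NAD(P)H dehydrogenase of mitochondria, rose from 0.125 and 0.203 CPM to 8.01 and 7.99 CPM (log2 fold change 5.56 ± 0.30, adjusted p = 6.69e-05). AT2G01422, a non-coding RNA, was at 0.665 and 0.0405 CPM in wild type and 18.0 and 19.0 CPM in skip-1 (log2 fold change 5.71 ± 0.54, adjusted p = 0.00109). JMJD5, a jumonji-domain oxygenase known for its part in the clock, fell from 121 and 149 CPM to 12.3 and 22.4 CPM (log2 fold change -2.97 ± 0.38, adjusted p = 0.00449). AT4G15690 and AT4G15700, neighbouring thioredoxin superfamily genes on chromosome 4 that may share reads, fell from 11.8 and 12.3 CPM to 1.24 and 1.74 CPM and from 9.68 and 8.87 CPM to 1.08 and 1.65 CPM. CRK30, a receptor-like kinase, fell from 24.2 and 24.8 CPM to 3.21 and 3.39 CPM (log2 fold change -2.89 ± 0.28, adjusted p = 0.000787).

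On the per-length scale of the deposited FPKM values, the 6 largest absolute rises among called genes were in light-harvesting proteins, which bind chlorophyll around the photosystems. LHB1B2, of the antenna of photosystem II, stood at 6090.0 and 6529.9 FPKM in wild type and 12012 and 12631 FPKM in skip-1 (log2 fold change in counts 1.0 ± 0.17). CAB3 stood at 3248 and 2624 FPKM in wild type and 7792 and 7096 FPKM in skip-1 (1.37 ± 0.19) and its neighbour CAB2 at 889 and 371 FPKM in wild type and 3836 and 2811 FPKM in skip-1 (2.43 ± 0.50), and reads of these like copies may be split between them. For photosystem I, LHCA4 stood at 1777 and 1269.5 FPKM in wild type and 4849 and 4594 FPKM in skip-1 (1.67 ± 0.20) and LHCA1 at 2071 and 1479.5 FPKM in wild type and 4461 and 4082 FPKM in skip-1 (1.30 ± 0.19), while LHCB6, of photosystem II, was at 1427 and 1056 FPKM in wild type and 3322 and 3117 FPKM in skip-1 (1.41 ± 0.16). All of these calls but that of CAB2, lost without wild-type replicate 2 or skip-1 replicate 1 or 2, were retained. On the same scale, the 6 largest falls were in abundant transcripts of other kinds. GRP3S, a glycine-rich protein gene, stood at 4730.2 and 7159 FPKM in wild type and 938 and 1923 FPKM in skip-1, and its tandem relative GRP-3 at 1842 and 2159 FPKM in wild type and 516 and 983 FPKM in skip-1. Reads of such copies may be split between them. MT2A, a metallothionein, stood at 2136 and 2696 FPKM in wild type and 1002 and 1651 FPKM in skip-1. GRP3S lost its call without wild-type replicate 2, GRP-3 without wild-type replicate 1 or 2 and MT2A without wild-type replicate 1 or 2 or skip-1 replicate 1. AT1G54410, a dehydrin family protein gene, stood at 2319 and 1902 FPKM in wild type and 1086 and 956 FPKM in skip-1, and AT1G13930, annotated as oleosin-B3-like, at 1826 and 1727 FPKM in wild type and 843 and 819.8 FPKM in skip-1, both with retained calls. THI1, which makes the thiazole of thiamine, was at 3086 and 2687 FPKM in wild type and 1921 and 1879.6 FPKM in skip-1, a log2 fold change in counts of -0.57 ± 0.11 that was lost without wild-type replicate 1.

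The genotype difference with ABA, measured in 4 other libraries, was compared gene by gene with that without. There, 6504 features (31.0%) were called, 2855 (13.6%) higher and 3649 (17.4%) lower in skip-1. Scaling by library size alone moved the median of all features with ABA from -0.02 to 0.12 on the log2 scale and gave 4180 higher and 2493 lower, so the balance of directions with ABA depends on the scaling. Of the 2195 features higher without ABA, 1192 (54.3%) were also higher with it, which is 41.8% of those higher with ABA, and 98 were lower. Of the 2102 lower without ABA, 1236 (58.8%) were lower with it, 33.9% of those lower with ABA, and 25 were higher. Of the retained calls 376 of 519 (72.4%) were also called higher with ABA, and 477 of 576 (82.8%) lower. The difference of both genotype effects passed the test for 644 features (3.07%), and for 301 (7.0%) of the 4297 called without ABA.

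By list, iron and starch genes showed like shares in both conditions. Iron transcription factors had 6 higher and 2 lower with ABA, BTS and its 5 loci 5 and 1, and starch degradation 0 and 9. bHLH38 differed by 7.79 with ABA beside 6.53 without, and GWD1 by -1.31 beside -1.25. Counts with ABA are under TMM scaling. Lists tied to ABA and heat had other shares: ABA- and dehydration-induced genes had 1 higher and 16 lower with ABA, and heat shock and ER chaperones 0 higher and 16 lower. For HB7 the values with ABA were 992 and 982 CPM in wild type and 688 and 735 CPM in skip-1, a log2 fold change of -0.47 (adjusted p = 0.0191), so it was higher in skip-1 without ABA and lower with it, a difference of -1.99 (adjusted p = 0.00292). GOLS2 stood at 74.5 and 77.7 CPM in wild type and 86.5 and 75.8 CPM in skip-1 with ABA, where it was not called (adjusted p = 0.652), and its difference of effects was -1.91 (adjusted p = 0.00749). VTL5 was at 4.35 and 4.75 CPM in wild type and 3.64 and 3.18 CPM in skip-1 with ABA and was not called there (adjusted p = 0.107).

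**Figure D5:**
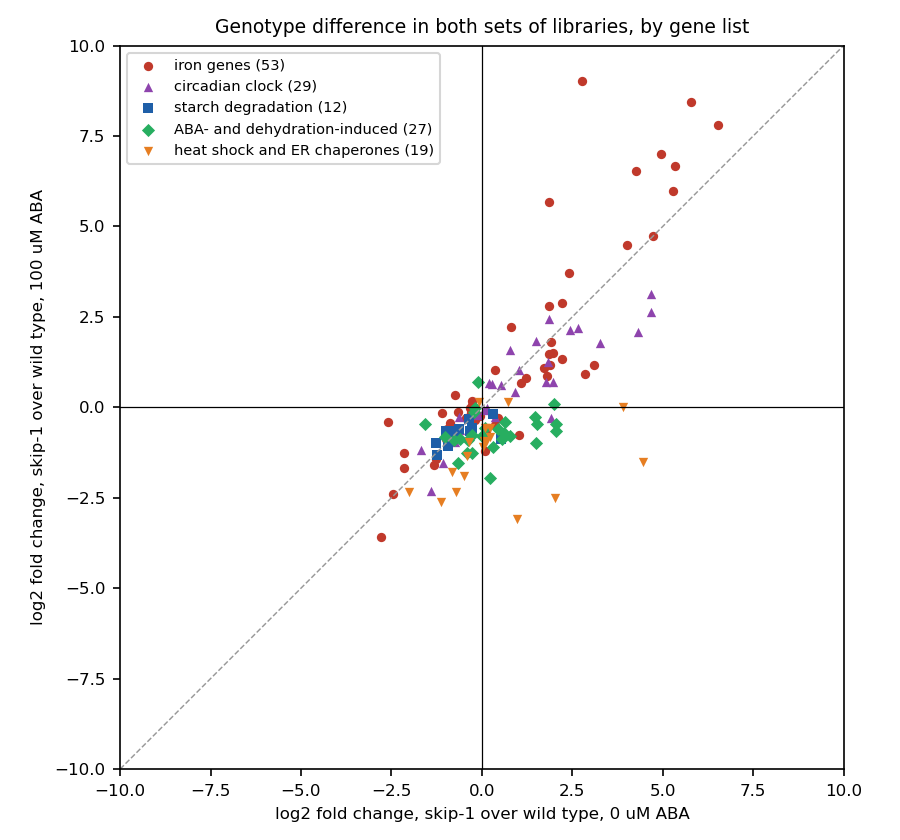
Log2 fold change of skip-1 over wild type at 0 µM ABA (x axis) and at 100 µM ABA (y axis) for tested members of 5 groups of gene lists, 1 point per gene, with the line of equality dashed. Most iron and starch genes lie to the upper right or lower left of the origin, with the same sign in both conditions. Of the ABA-induced genes called higher at 0 µM, HB7, P5CS1 and RD22 lie under 0 on the y axis and GOLS2 near 0. The highest point is IRT1, which had 0 and 1 counts in the wild-type libraries with ABA.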

How the data were processed

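RNA-seq of whole seedlings was deposited as a table of raw counts and a table of FPKM per gene. The counts were made by the authors, whose processing notes name Bowtie2 2.2.3, TopHat2 2.0.12, HTSeq 0.6.1 and the TAIR10 build. FPKM values deposited by the authors divide counts by gene length and depth, and describe levels per length and rank absolute differences, with no test on them. No label says whether counting used strand, so overlapping and antisense genes cannot be told apart. All 8 libraries were fitted with edgeR 4.0.16 in R 4.3.3 (TMM scaling, filterByExpr by group, robust quasi-likelihood F test, 1 coefficient per group, Benjamini-Hochberg adjustment). The standard error of a log2 fold change is its size divided by the square root of F. DESeq2 1.42.0, other scalings and filters, the 4 libraries alone and leaving out each library were alternatives. RefSeq annotation matched 32835 of 33674 features, and 20806 of the 21008 tested. The floor of counts covers counting error only, whereas the standard errors come from the fit and include the spread between libraries.

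The comparison, the 43 gene lists (803 genes, 767 tested) and the naming rule were chosen with earlier results of these data known, and the motifs, intron classes and RNA classes after the calls were seen. The rule named SKIP, the 10 largest retained changes in each direction at a mean log2 CPM of at least 2, the 6 largest FPKM changes in each direction, and per list up to 4 members of smallest adjusted p, all called members where 5 or fewer were called, and members that moved against the rest. Other list members printed were named after their values were seen. Other per-sample columns numbered 0.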

Additional observations from a re-analysis of the deposited data

Results flagged for a closer look

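For 33 of the 229 named genes besides SKIP the genotype difference with ABA differed from that without ABA by edgeR's test of the difference (adjusted p under 0.05). Over all tested features it did so for 3.07%, with 168 positive and 476 negative differences. Scaling by library size alone gave 297 and 238. Genes were named mainly by their values without ABA, which are subtracted here, so the balance of signs among them carries no weight. Each value below is the log2 fold change of skip-1 over wild type with ABA minus that without ABA.

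Genes with a more negative difference under ABA came first from the ABA response and growth. GASA3 had -6.88, a fitted value that rests on 0 counts in both wild-type libraries without ABA, and AT4G36700, a cupin, had -6.36. At 100 µM ABA these genes stood at 9.10 and 7.36 CPM in wild type and 10.6 and 7.77 CPM in skip-1 and at 9.85 and 7.94 CPM in wild type and 13.6 and 13.3 CPM in skip-1. P5CS1 had -2.53, HB7 -1.99, GOLS2 -1.91, RD22 -1.59 and ABF3 -1.23. With ABA, P5CS1 measured 1385 and 1871 CPM in wild type and 870.1 and 1474 CPM in skip-1. Among wall and water channel genes the values were -1.28 for EXPA1, -0.80 for EXPA4, -0.72 for XTH7, -1.03 for TIP1;1, -1.13 for PIP2;1 and -1.32 for PIP1;4.

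Other negative values were -5.95 for the small heat shock protein HSP17.4, -0.93 for the disulfide isomerase PDIL1-1, -4.50 for SAG29 and -4.25 for the ribonuclease RNS1. RNS1 stood at 236 and 205 CPM in wild type and 43.7 and 46.4 CPM in skip-1 with ABA and at 0.831 and 0.567 CPM in wild type and 2.32 and 3.15 CPM in skip-1 without. The values were -1.99 for the phosphate-starvation RNA IPS1, -2.32 for the wax gene CER1 and -1.5 for the flavonoid gene TT5. In the clock and flowering lists CDF1 had -2.20 and SOC1 -1.02, and in the iron lists CGLD27 had -1.92 and NRAMP4 -0.95.

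Positive values were fewer. VTL5 had 2.19, FRO6 1.31 and NRAMP1 1.07 among iron genes. The receptor gene PYL4 had 2.01, BG1 1.56, CRK28 1.77, NRT1.5 1.26, and the glucosinolate genes MAM3 and CYP83B1 0.84 and 0.87.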

How the results depend on the processing

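Of 229 named genes besides SKIP 208 were called, and 0 of these reversed under any of the 15 settings, while 111 lost the call when some library without ABA was left out and 43 under another scaling, filter or test. The 4297 calls without ABA fell to 2441 without skip-1 replicate 1, 1996 without wild-type replicate 1 and 1383 without wild-type replicate 2, and leaving out each of the 8 libraries gave 1383 to 3785. Calls at least 2-fold ran from 773 to 1627 in the same way, the lowest without wild-type replicate 2. With ABA the range was 3521 to 6851 around 6504, and for the difference of both effects 121 to 608 around 644. DESeq2 called 1201 for that difference. The fit with the replicate number as a block called 1357 for it, 5548 in place of 4297 without ABA, and 1765 at least 2-fold, and 6 of 16 sulfate genes higher in place of 0. Deviations of libraries with the same number correlated at 0.111 to 0.258. The labels give the numbers no meaning, and whether such libraries shared conditions was not tested. Scaling by library size alone called 535 for that difference, 297 higher and 238 lower in place of 168 and 476, and 1914 higher and 2358 lower without ABA. SKIP, not called otherwise, passed the test under the block (-0.41, adjusted p = 0.0104), with library size alone (-0.44, adjusted p = 0.0488) and without skip-1 replicate 2 (-0.58, adjusted p = 0.0344), and ranged from -0.58 to -0.24 over libraries left out. The cause of these changes was not tested, except that each library left out leaves a group with 1 library, assumed to vary like the others. At unadjusted p under 0.05, 7487 features differed without ABA. Genes under about 1 CPM rest on few reads, which limits their fold changes.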

Other observations

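RNA classes outside the gene lists, grouped after the calls were seen, also differed. Of 24 tested microRNA gene loci 7 (29.2%) were called lower and 1 (4.17%) higher, against 10% and 10.4% of all features. Reads were few, with a median log2 CPM of -0.42 over these loci. With a filter of 1 CPM in 4 libraries 3 of 8 were lower and 1 higher, and DESeq2 called 4 of 24 lower and 1 higher. MIR162a, the precursor of the microRNA that targets the processing enzyme DCL1, stood at 8.23 and 6.20 CPM in wild type and 1.36 and 1.08 CPM in skip-1 (log2 fold change -2.55 ± 0.26, adjusted p = 0.00085 by edgeR's quasi-likelihood test). With ABA the difference of MIR162a was -2.53. MIR822 stood at 5.57 and 6.08 CPM in wild type and 2.44 and 2.49 CPM in skip-1 (-1.24 ± 0.20), and it differed by 0.07 with ABA. These 2 calls were retained, whereas those of MIR160c, MIR156c, MIR163, MIR167a and MIR159a were not, and the number lower was 4 without wild-type replicate 1, 3 without wild-type replicate 2, 3 without skip-1 replicate 1 and 4 without skip-1 replicate 2. The reads come from precursor loci, and mature microRNAs were not measured.

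Of 164 pseudogenes 42 (25.6%) were called higher, 12 of them retained, and 17 (10.4%) lower, 7 of them retained. Of the 42 higher ones 5 had 0 counts in wild type. With a filter of 1 CPM in 4 libraries, 20 of 104 were higher and 12 lower. The 4 libraries of either genotype can meet this filter alone, so loci silent in wild type can still pass it. RefSeq's separate class of transcribed pseudogenes had 13 of 131 (9.92%) higher and 12 (9.16%) lower, near the 10.4% and 10% of all features. Without wild-type replicate 2 the number higher was 16, and without wild-type replicate 1 it was 18, with 7 and 8 lower. Among retained ones AT4G16870 rose from 30.2 and 22.4 CPM to 91.1 and 66.5 CPM, and AT5G35935 from 2.08 and 2.96 CPM to 13.4 and 14.0 CPM, while AT2G06950 fell from 89.9 and 89.2 CPM to 19.5 and 22.1 CPM, and AT1G20390 from 33.2 and 30.9 CPM to 10.5 and 10.3 CPM. Pseudogenes can share reads with their parent genes, and the part of shared reads in these values was not tested.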
